A study of Homo sapiens with 13 samples.

Results

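The regions described here are the peaks of H3K27me3, the trimethyl mark on lysine 27 of histone H3, called in H1 human embryonic stem cells with and without the transcription factor ZNF263. H1 (WA01) is an established human embryonic stem cell line. The WT library came from unmodified H1 cells and the knockout (KO) library from H1 cells labelled 1-10 KO, whose genotype is given as ZNF263 homozygous KO. No treatment or time is given for either, and all KO libraries come from this 1 line. Both H3K27me3 lists were taken whole, 11906 peaks in WT and 10375 in KO, together 22281 of the 136141 peaks in the 7 lists of the series. A peak of one list was paired with a peak of the other when they shared at least 1 bp. Each genotype has 1 library, so no difference between genotypes was tested and none has a replicate check. What belongs to the loss of ZNF263 cannot be told apart from what belongs to that line or library. No read counts come with the lists, so depth is unknown. Intervals are 95% intervals (Wilson for shares, order statistics for medians) and cover the counting of peaks only.

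H3K27me3 is laid down by Polycomb repressive complex 2 and read by Polycomb repressive complex 1, and it marks silenced developmental genes. In human embryonic stem cells it forms narrow patches over CpG-rich promoters, many of which also carry H3K4me3 (bivalent chromatin), and broad domains over clusters of developmental regulators. H3K27ac, an acetyl mark of active promoters and enhancers, sits on the same lysine, so one histone tail cannot carry both. ZNF263 is a C2H2 zinc finger protein that binds DNA. Peaks named FLAG below come from KO cells with ectopic ZNF263-FLAG, and they need not all be sites of the endogenous protein.

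The KO list held fewer narrow peaks and slightly more wide ones. Peaks under 2 kb numbered 3254 in WT and 2177 in KO, a change of -33.1%. Between 2 and 5 kb there were 5700 and 5154 peaks (-9.58%). From 5 to 10 kb the order turned, with 2206 peaks in WT and 2262 in KO (2.54%), and at 10 kb or more there were 746 and 782 (4.83%). In bases, peaks below 5 kb covered 23.4 Mb in WT and 20.3 Mb in KO, while peaks of 5 kb or more covered 28.8 Mb and 30.0007 Mb. The direction of the narrow side depended on the setting. With lists of equal length, where only the 10375 WT peaks with the largest scores were kept, narrow peaks were 14.0% more numerous in KO. That setting removes the weakest WT peaks alone, which are mostly narrow. With a score of at least 100 in both lists, the change in narrow peaks was -37.8%. The change in peaks of 5 kb or more was 3.12%, and 3.22% with lists of equal length, but only 0.335% once peaks up to 3 kb apart were merged.

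Peaks of 1 genotype only were mostly narrow in both lists. In WT, 2575 peaks (21.6%, 20.9 to 22.4) overlapped nothing in the KO list. In KO, 1143 peaks (11.0%, 10.4 to 11.6) overlapped nothing in the WT list. Among peaks under 2 kb the shares were 55.5% (53.8 to 57.2) in WT and 39.3% (37.3 to 41.4) in KO, so these hold 1805 of the 2575 WT-only and 856 of the 1143 KO-only peaks. Between 2 and 5 kb they were 13.2% and 5.39%. At 5 kb or more only 16 of 2952 WT peaks (0.542%) and 9 of 3044 KO peaks (0.296%) stood alone. Below 1 kb the intervals overlapped, with 234 of 342 WT peaks (68.4%, 63.3 to 73.1) and 165 of 249 KO peaks (66.3%, 60.2 to 71.8) unpaired. The gap was widest from 1.5 to 2 kb, at 46.9% in WT and 26.97% in KO. With lists of equal length, 1492 WT-only and 1479 KO-only peaks were left. Equal lengths bring these 2 counts together by construction, so they cannot show what the WT excess rests on. The narrow shares then turned to 43.3% (41.1 to 45.6) in WT and 48.05% (45.95 to 50.1) in KO. With a score of at least 100 in both lists, 1397 WT-only and 451 KO-only peaks were left. The narrow shares were then 52.6% in WT and 28.2% in KO.

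**Figure D1:**
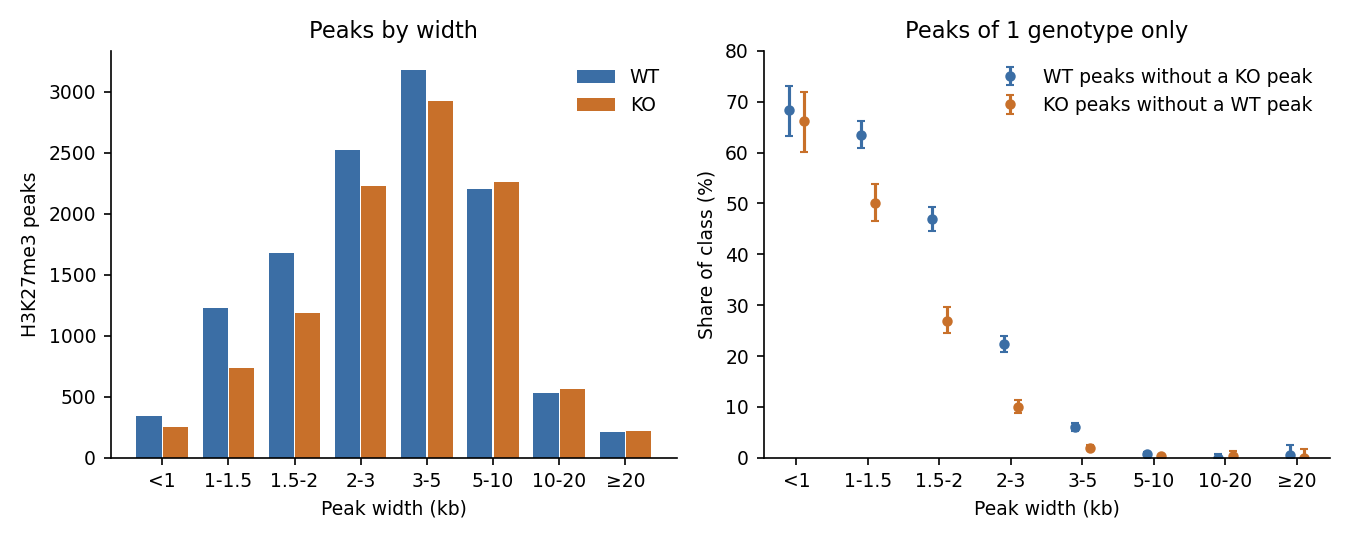
Left, number of H3K27me3 peaks in 8 width classes (kb) in WT (blue) and KO (orange). Right, share of each class with no peak in the other genotype, with Wilson 95% intervals: WT lies above KO from 1 to 5 kb, both meet below 1 kb, and both are near 0 from 5 kb up.

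Most unpaired peaks scored low in their own list. Each peak has a score given by the authors, which starts at 40, and 16.4% of WT and 16.1% of KO peaks reached 3100 or more. Its scale is not stated, so 1 score need not stand for the same signal in both lists, and the counts above a score are given side by side only. Scores under 100 were carried by 2032 WT-only peaks (78.9%) and 1001 KO-only peaks (87.6%). Within one score range, narrow WT peaks were still unpaired more often than wider ones: for scores of 100 to 500, 151 of 637 peaks under 2 kb (23.7%, 20.6 to 27.2) had no KO peak, against 362 of 2826 between 2 and 5 kb (12.8%, 11.6 to 14.1). At scores of 500 or more, 21 of 4896 WT peaks and 4 of 4321 KO peaks were unpaired. Taken with a score of 100 or more against the complete other list, a comparison chosen after the data were seen, 543 of 8494 WT peaks (6.39%) and 142 of 7503 KO peaks (1.89%) remained without a partner.

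Most unpaired peaks lay more than 3 kb from any peak of the other genotype. Distances were measured on the 2573 WT-only and 1134 KO-only peaks whose chromosome or contig had a peak in the other list. Within 50 kb of such a peak lay 56.1% of the WT-only and 59.9% of the KO-only peaks. The median distance to the nearest KO peak was 36.8 kb for WT-only peaks, and the median distance to the nearest WT peak was 25.3 kb for KO-only peaks. Within 3 kb of a KO peak lay 517 of the former (20.1%, 18.6 to 21.7), and within 3 kb of a WT peak lay 321 of the latter (28.3%, 25.8 to 31.0). The share near a domain of the other list was thus higher for KO-only peaks. These were measured against the denser list: the median gap between neighbouring peaks was 74.9 kb in WT and 92.6 kb in KO. The part of list density in this difference was not tested.

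The narrow WT-only peak with the largest score (809.87) lay at chr12:130823207-130825200, 1994 bp wide, with the nearest KO peak 70.5 kb away and no H3K4me3, H3K27ac or FLAG peak on it. The next, at chr19:47850769-47852359, carried H3K4me3 in both genotypes. At chr9:35845730-35847675 the WT-only peak overlapped H3K4me3 in both genotypes and an H3K27ac peak in WT alone. The one at chrX:120181136-120182879 overlapped H3K4me3 in WT alone. The fifth, at chr2:235403715-235405389, overlapped H3K4me3 and H3K27ac in both genotypes and a FLAG peak, and a KO H3K27me3 peak lay 0.528 kb from it. In KO the narrow peak with the largest score (262.77) was at chr6:161186968-161188732, 162.6 kb from any WT peak, with H3K4me3 in both genotypes. The most isolated of the 5 was chr5:24642629-24644618, 1789 kb from the nearest WT peak, again with H3K4me3 in both. Those at chr1:21806944-21807319 and chr12:68466121-68467802 carried none of the other peaks, and the latter lay only 0.001 kb from a WT peak. The remaining one, chrY:4871721-4873252, lay 0.356 kb from a WT peak and carried H3K4me3 in both genotypes. These leading narrow peaks therefore included isolated patches in both genotypes as well as peaks beside a domain of the other list.

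Wide unpaired peaks were few. The widest in WT, 27947 bp at chr4:41847-69793 near the start of the chromosome, had a score of 55.69 and lay 34.6 kb from a KO peak. The next, 9300 bp at chr22:39624921-39634220, was 1.30 kb from a KO peak and overlapped 2 FLAG peaks, H3K4me3 in both genotypes and H3K27ac in WT. A pair of neighbours on chromosome 1, at 205395953 to 205403088 and 205403331 to 205409418, were both absent from the KO list, and both overlapped H3K4me3 in KO. The fourth of the widest, chr20:60375062-60381770, had no other peak. In KO, the 2 widest were also neighbours, at chr16:32534169-32552212 (18044 bp) and chr16:32552532-32562572 (10041 bp), with no other mark. The third, chr19:27845990-27853237, lay 383.7 kb from any WT peak. The fourth, chr13:114799049-114805826, had the highest score of the 5 (1166.95) and overlapped a FLAG peak. The fifth, chr20:59709696-59716274, lay 0.294 kb from a WT peak. None of these 5 KO-only peaks overlapped H3K4me3 or H3K27ac in either genotype.

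Where both genotypes had a peak, widths were close. A WT peak and a KO peak that overlapped each other and nothing else formed 8086 one-to-one pairs. The KO peak of a pair was wider by a median of 45 bp (31 to 57), and the middle of the distribution from the 5th to the 95th percentile ran from -1034 to 1229 bp. A KO peak narrower by more than 500 bp is called eroded here and one wider by more than 500 bp spread. Eroded pairs numbered 1140 (14.1%) and spread pairs 1603 (19.8%), and the other 5343 (66.1%) stayed within 500 bp. A shift of all domains in 1 direction was thus not seen, and the excess of spreading was small.

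The share of pairs spread by more than 500 bp rose with domain width up to the class of 10 kb or more. The change relative to width did not rise steadily. Pairs were classed by the mean of both widths, because classing by one genotype's width alone pulls the other towards the middle. Under 2 kb, 11.97% were spread and 10.7% eroded, with a median change of 5 bp (-17 to 26). From 2 to 5 kb the shares were 17.2% and 14.7%, with a median of 28 bp (15 to 44). From 5 to 10 kb they were 26.4% and 13.6%, with a median of 90 bp (62 to 124). At 10 kb or more they were 32.2% and 17.0%, with a median of 185 bp (95 to 240). In the 164 pairs of 20 kb or more the shares were close again, 25.6% spread and 22.6% eroded, and the interval of the median, 69 bp, included 0 (-119 to 204). The limit of 500 bp was the same for all widths. Relative to WT width, the median change was 0.408% under 2 kb, 0.860% from 2 to 5 kb and 1.47% from 5 to 10 kb. It was 0.880% at 10 kb or more and 0.255% at 20 kb or more.

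Edges usually moved on 1 side. Of the pairs, 5433 (67.2%) kept both edges within 500 bp, 1308 (16.2%) had 1 edge outside the WT edge by more than that and 996 (12.3%) had 1 edge inside. Both edges lay outside in 141 pairs and inside in 56, while 152 moved out on 1 side and in on the other. Among all 16172 edges, 1742 (10.8%) were more than 500 bp further out in KO and 1260 (7.79%) further in. The size of the displacement without its sign had a median of 197 bp. The midpoint of the KO peak lay a median of 19 bp towards the higher coordinate, against 11.5 bp in H3K4me3 pairs and 8 bp in H3K27ac pairs. Fragment size is not in the lists, and its part in this offset was not tested.

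The excess of spreading was larger in domains without H3K4me3. The 1346 pairs with no H3K4me3 peak in either genotype were wider in KO by a median of 145 bp (113 to 182), and 30.9% (28.5 to 33.4) were spread against 15.1% eroded. The 6740 pairs with H3K4me3 had a median of 28 bp (17 to 41), with 17.6% spread and 13.9% eroded. In each of the 4 width classes the share spread was higher without H3K4me3. From 5 to 10 kb, 42.0% (36.3 to 48.0) of pairs without H3K4me3 were spread, against 23.9% (21.9 to 25.97) with it. At 10 kb or more the shares were 46.4% (35.1 to 58.0) and 30.3% (26.5 to 34.4). Under 2 kb, pairs with H3K4me3 had a median of -15 bp (-44 to 10) and those without 46 bp (8 to 91).

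Over all widths together, FLAG peaks separated pairs less. The 4433 pairs with a FLAG peak had a median change of 31 bp (17 to 47) and the 3653 without one 65 bp (44 to 82). Pairs with a FLAG peak were wider, with a median WT width of 4328 bp against 3153 bp. From 5 to 10 kb the median changes were 51.5 bp (26 to 74) with and 210 bp (148 to 264) without a FLAG peak. In the other width classes the intervals overlapped. Among pairs that carried H3K4me3 the medians were 27 bp (14 to 42) with and 30 bp (11 to 56) without a FLAG peak. From 5 to 10 kb these were 50.5 bp (25 to 74) and 148.5 bp (70 to 218). Only 98 pairs had a FLAG peak and no H3K4me3, and their median was 305.5 bp (97 to 486). The 1248 pairs with neither had a median of 136 bp (99 to 175).

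**Figure D2:**
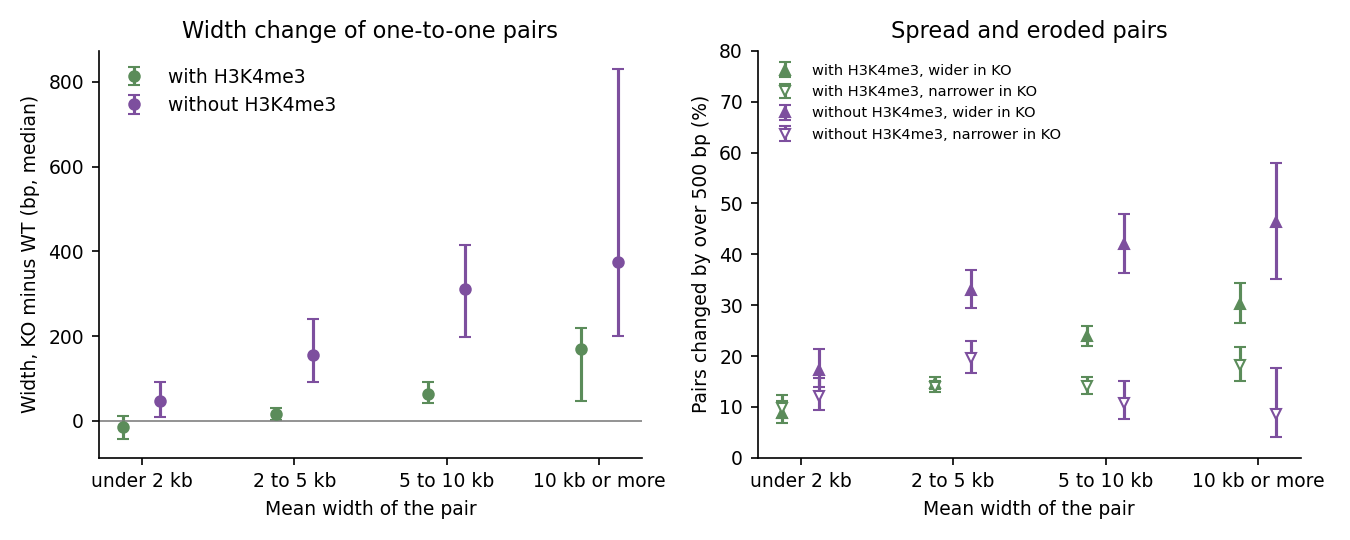
Left, median width change (KO minus WT, bp) of one-to-one H3K27me3 pairs by mean width, with (green) and without (purple) an H3K4me3 peak, with 95% intervals. Right, share of pairs spread (filled triangles) and eroded (open triangles) by over 500 bp with Wilson 95% intervals: the share spread by over 500 bp rises with width and is higher without H3K4me3.

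The 5 pairs with the largest narrowing all lay on H3K4me3 in both genotypes, and 4 of the 5 held a FLAG peak. Of all 8086 pairs, 6740 carried H3K4me3 and 4433 a FLAG peak, so these counts do not set the 5 apart. At chromosome 20 the domain at 57597020 to 57612815 in WT ended at 57608363 in KO, which dropped by 4828 bp from 15796 to 10968 bp, nearly all of it at the right edge. At chromosome 11 the domain at 124584466 to 124596567 went from 12102 to 7873 bp, again mostly at the right edge. On chromosome 5, 72673088 to 72681280 went from 8193 to 4433 bp, with both edges further in by over 1 kb. The pair at chromosome 1, 3444229 to 3450966, and the pair at chromosome 12, 25642493 to 25647209, both narrowed by 3364 bp (change of -3364 bp). In the chromosome 12 pair the H3K4me3 and H3K27ac peaks under the WT domain, present in both genotypes, no longer met H3K27me3 in KO.

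The pairs with the largest widening mostly had a small WT peak with a low score. The first, at chromosome 17, 21218858 to 21225130 in WT and 21219514 to 21232645 in KO, grew from 6273 to 13132 bp by a shift of 7515 bp at the right edge. It carried H3K4me3 in both genotypes and a FLAG peak. The other 4 were peaks of 1403 to 2093 bp in WT, with scores of 44.61 to 57.96, that were over 5 kb wide in KO. The WT peak at chr12:53450254-53451726, 1473 bp, became a KO domain of 6905 bp that reached an H3K4me3 peak present in both genotypes and 2 FLAG peaks. The peak at chr6:49522864-49524956 went from 2093 to 6692 bp and also reached H3K4me3. Those at chr9:124762748-124764150 (1403 to 5931 bp) and chr11:2844991-2846475 (1485 to 5431 bp) met no H3K4me3 in either genotype. The WT and KO peaks of the chr11 pair both overlapped a FLAG peak, while the chr9 pair overlapped none.

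Few peaks were fragmented in the other genotype, and splitting was more frequent in wide peaks. A WT peak over 2 or more KO peaks was called split in KO, and this held for 396 WT peaks (3.33%, 3.02 to 3.66). The reverse, a KO peak over 2 or more WT peaks, held for 466 KO peaks (4.49%, 4.11 to 4.91). At 10 kb or more the shares were 10.05% (8.10 to 12.4) of WT and 16.5% (14.1 to 19.3) of KO peaks. The order of the 2 counts turned with lists of equal length, to 391 WT peaks split in KO and 363 KO peaks split in WT. Most were broken in 2: 389 of the 396 and 434 of the 466. The breaks were short, with a median of 108 bp for gaps in KO and 139 bp for gaps in WT, and 89.8% and 81.3% of them were under 500 bp. After peaks up to 3 kb apart in both lists together were merged, 8010 domains held peaks of both genotypes. In 6796 of these both genotypes had the same number of pieces, in 738 WT had more and in 476 KO had more. Among the 1078 such domains of 10 kb or more, WT had more pieces in 264 and KO in 140, and KO covered more bases in 634 (58.8%). The domain counts were not repeated with lists of equal length, and the part of the longer WT list in them was not tested.

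The domain with the most WT pieces lay at chr1:228713312-228736043, where 1 KO peak of 22732 bp spanned 5 WT peaks that covered 93.8% of it, with no H3K4me3 and no FLAG peak. A KO peak of 73749 bp at chr11:2581825-2655573 spanned 4 WT peaks, again without H3K4me3. At chr19:28247477-28261311 the KO peak spanned 4 WT peaks. The KO domains at chr16:56639230-56712332 and chr17:17577149-17633587 each spanned 3 WT peaks and held 8 and 5 FLAG peaks. Both carried H3K4me3, with 12 WT and 11 KO peaks on the chr16 domain and 4 of each on the chr17 domain. The chr17 domain also held 1 WT H3K27ac peak. In the other direction, 3 was the highest number of KO pieces in a WT peak. These were led by chr10:23455862-23495590, which was still 99.5% covered in KO, chr12:54831820-54857100 (93.2%) and chr1:38214899-38235594 (89.4%). The last of the 5, chr19:53001194-53006561, carried H3K4me3 in WT alone.

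The widest domains were kept nearly base for base. The 4 widest WT peaks lay on chromosomes 12, 7, 17 and 2, at chr12:54313970-54460857 (146888 bp), chr7:27124944-27270287 (145344 bp), chr17:46594193-46728741 (134549 bp) and chr2:176928137-177060531 (132395 bp). KO peaks covered 99.1%, 99.3%, 100% and 100% of them. The fifth, chr11:63795821-63881085 (85265 bp), was also 100% covered. The HOX genes, transcription factors that pattern the body axis and classic Polycomb targets, form clusters on chromosomes 7 (HOXA), 17 (HOXB), 12 (HOXC) and 2 (HOXD), according to the RefSeq gene table, the same 4 chromosomes. That table belongs to another build than the hg19 peaks, so no gene was assigned to a peak. The chromosome 12 domain was met by 2 KO peaks and each of the other 4 by 1.

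H3K4me3 covered fewer bases of these kept domains in KO. Its whole list also covered fewer bases, 81.5 Mb in WT and 78.2 Mb in KO, a smaller fall in proportion than in each domain. H3K4me3 covered 30.1 kb in WT and 22.1 kb in KO of the chromosome 7 domain, in 18 and 10 peaks. The chromosome 2 domain held 36.8 kb and 29.7 kb, the chromosome 12 domain 9.21 kb and 5.76 kb, and the chromosome 17 domain 14.8 kb and 13.7 kb. At the chromosome 11 domain the values were 7.18 kb and 4.95 kb. Fewer bases of all 5 thus lay under H3K4me3 peaks in KO, and none held H3K27ac in either genotype. Between 10 and 16 FLAG peaks lay on each.

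In bases, H3K27me3 found in WT alone was mostly in whole unpaired peaks, and H3K27me3 found in KO alone was mostly at edges. WT-only bases made up 7.34 Mb, 14.1% of the WT list. Of these 4.69 Mb (63.9%) lay in unpaired peaks, 2.56 Mb (34.9%) at outer edges of paired peaks and 0.0878 Mb (1.20%) in gaps. KO-only bases made up 5.40 Mb, with 1.97 Mb (36.5%) in unpaired peaks, 3.27 Mb (60.6%) at edges and 0.158 Mb (2.93%) in gaps. With lists of equal length the shares in unpaired peaks were 55.5% of WT-only and 44.6% of KO-only bases. Edges alone gave KO a net surplus of 0.714 Mb, while unpaired peaks gave a net difference of -2.72 Mb.

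The other marks did not show the same balance. Edges of H3K4me3 gave a net difference of -0.878 Mb in KO, and its 24423 one-to-one pairs were narrower in KO by a median change of -31 bp (-35 to -28). H3K27ac resembled H3K27me3 at its edges, with 0.958 Mb net in KO and a median change of 52 bp (45 to 59) over 12688 pairs. It differed in its unpaired peaks, whose net difference was only -0.149 Mb. A difference between marks was not tested, as each rests on 1 library per genotype.

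**Figure D3:**
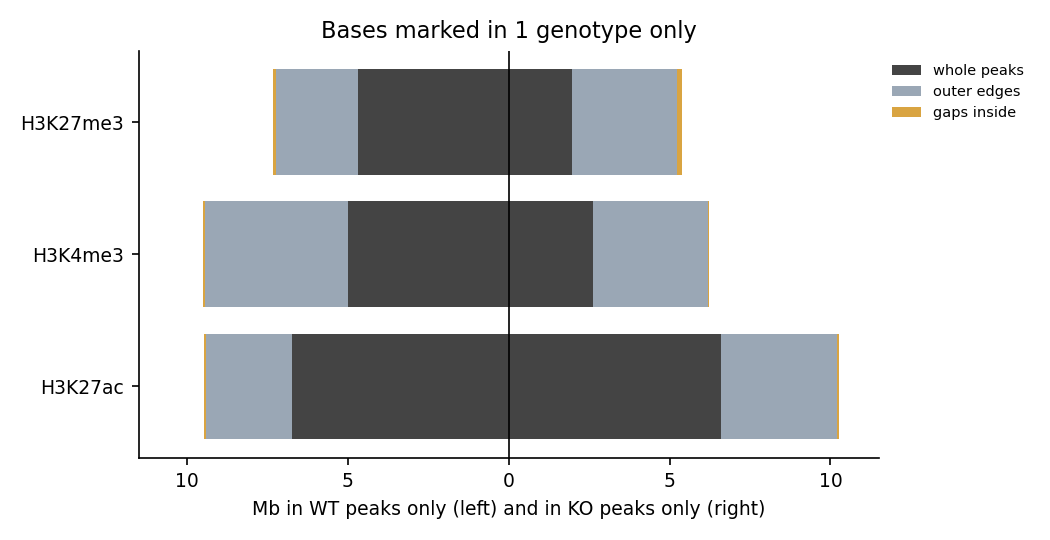
Bases (Mb) under peaks of 1 genotype only for each mark, WT to the left and KO to the right, divided into whole unpaired peaks (dark), outer edges of paired peaks (light) and gaps inside them (yellow). For H3K27me3 the whole peaks dominate in WT and the edges in KO.

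Narrow H3K27me3 peaks were fewest in KO, relative to WT, where a FLAG peak lay on them. Peaks under 2 kb with both H3K4me3 and FLAG numbered 792 in WT and 392 in KO, a change of -50.5%. With H3K4me3 but no FLAG peak there were 886 and 569 (-35.8%), and with neither 1464 and 1173 (-19.9%). The few with FLAG alone numbered 112 and 43 (-61.6%). At widths of 5 kb or more the changes were small where H3K4me3 was present, with 1938 and 1963 peaks with both and 556 and 550 with H3K4me3 alone. Wide peaks with neither numbered 426 in WT and 487 in KO (14.3%), by each genotype's own H3K4me3 peaks. With the H3K4me3 peaks of WT used for both, the change was 7.04%, and with those of KO 6.56%. Narrow peaks with both changed by -50.1% either way. With lists of equal length narrow peaks with both changed by -26.9%, and those with neither by 60.03%. That setting removes the weakest WT peaks alone. With a score of at least 100 in both lists, the same 2 changes were -55.4% and -8.72%. The direction at narrow sites with neither thus turned with the setting, and that at sites with both did not.

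The share of narrow peaks left unpaired was higher on FLAG peaks in WT and lower on them in KO. In WT it was 60.3% (57.1 to 63.4) with a FLAG peak and 53.6% (51.6 to 55.6) without, and in KO 17.0% (13.8 to 20.8) with and 44.9% (42.6 to 47.2) without. By H3K4me3 the WT shares were close, with it at 924 of 1678 (55.1%, 52.7 to 57.4) and without it at 881 of 1576 (55.9%, 53.4 to 58.3). Narrow KO peaks were unpaired in 204 of 961 cases with H3K4me3 (21.2%, 18.8 to 23.9) and in 652 of 1216 cases without (53.6%, 50.8 to 56.4). Among narrow KO peaks with H3K4me3 the share was 14.5% (11.4 to 18.4) with and 25.8% (22.4 to 29.6) without a FLAG peak. Among those without H3K4me3 it was 39.5% (26.4 to 54.4) and 54.1% (51.3 to 57.0), with intervals that overlapped. In WT these shares were 60.2% and 50.5% with H3K4me3, and 60.7% and 55.5% without. None of these contrasts was tested between genotypes.

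**Figure D4:**
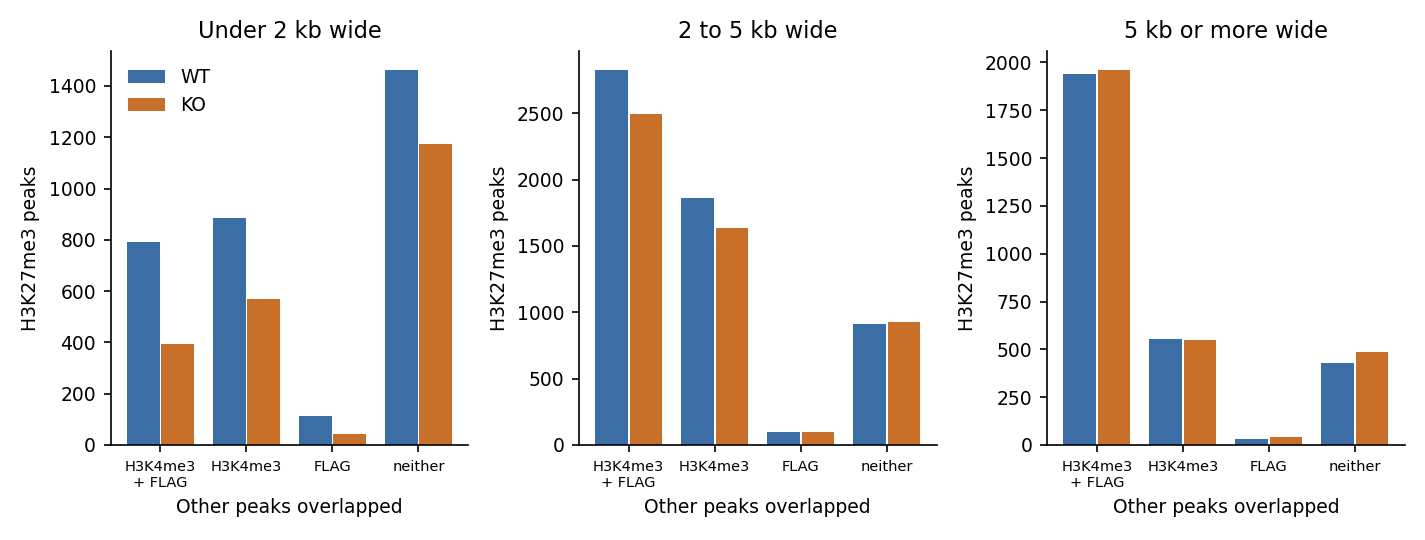
Number of H3K27me3 peaks in WT (blue) and KO (orange) in 3 width ranges, by overlap with H3K4me3 of the same genotype and with FLAG peaks. KO is lowest relative to WT for narrow peaks with a FLAG peak, and the lists are close from 5 kb up.

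Few H3K27me3 peaks found in WT alone had an H3K27ac peak in KO alone. Of the 2575 WT-only peaks, 59 (2.29%, 1.78 to 2.94) overlapped H3K27ac in KO alone, 166 (6.45%, 5.56 to 7.46) in WT alone and 287 in both. Eroded pairs had H3K27ac in KO alone in 28 of 1140 WT peaks (2.46%), against 15 of 1603 spread pairs (0.936%) and 81 of 5343 stable ones (1.52%). H3K4me3 lay on 1394 WT-only peaks (54.1%) in both genotypes and on 122 (4.74%) in WT alone. Of all WT peaks, 74.4% overlapped WT H3K4me3 and 11.8% WT H3K27ac, against 58.9% and 17.6% of WT-only peaks. WT-only peaks were mostly narrow, and under 2 kb WT H3K4me3 lay on 51.6% of all WT and 51.2% of WT-only peaks. From 2 to 5 kb it lay on 82.3% and 76.7%. WT H3K27ac lay on 14.4% and 17.0% under 2 kb. Of the KO-only peaks 799 (69.9%, 67.2 to 72.5) had no H3K4me3 in either genotype and 1039 (90.9%) no H3K27ac in either. KO H3K4me3 lay on 27.9% of KO-only peaks and on 73.3% of all KO peaks, and under 2 kb on 23.8% and 44.1%. KO H3K27ac lay on 7.09% and 7.47%, which were close only over all widths together. Under 2 kb it lay on 5.96% of KO-only and 8.68% of all KO peaks. From 2 to 5 kb the order was the other way, 10.8% and 8.93%. Of the narrow KO peaks with KO H3K27ac, 51 of 189 (interval 21.2% to 33.7%) were unpaired. Without it, 805 of 1988 (38.4% to 42.7%) were.

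Edges found in KO alone touched H3K4me3 less often than edges found in WT alone. Among edge segments over 500 bp, 415 of the 1431 found in WT alone (29.0%, 26.7 to 31.4) touched a WT H3K4me3 peak, against 286 of the 2007 found in KO alone (14.3%, 12.8 to 15.8). FLAG peaks were touched by 18.2% (16.3 to 20.3) and 11.4% (10.1 to 12.9). WT H3K4me3 peaks covered 23.6% of the bases of all edges lost in KO and 11.4% of those gained, against 45.3% of bases marked in both. WT H3K27ac covered 4.74% of lost edges and 2.10% of gained ones.

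**Figure D5:**
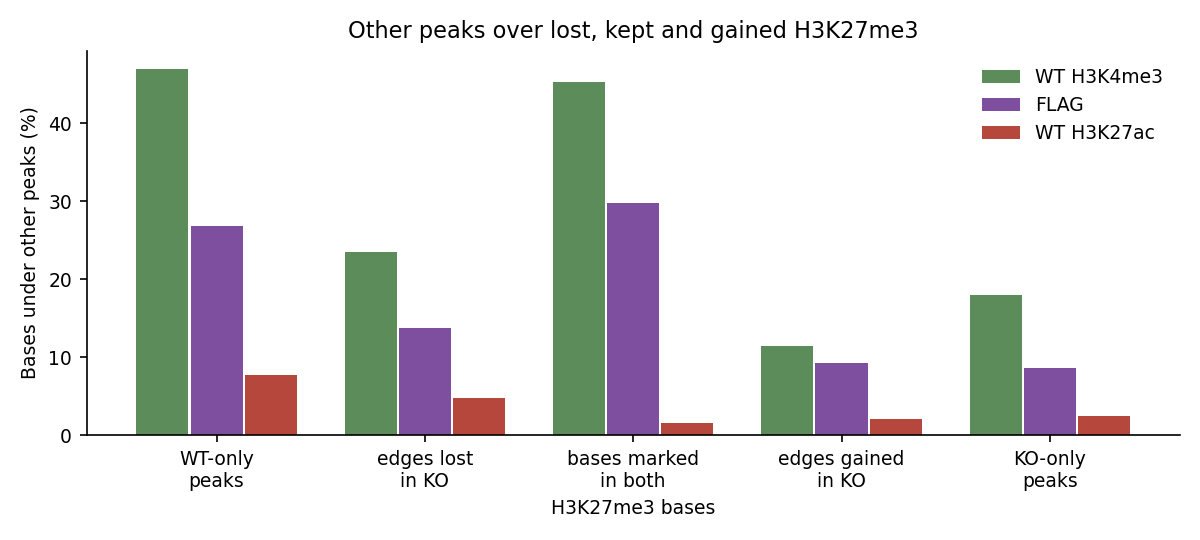
Share of H3K27me3 bases (%) under WT H3K4me3 (green), FLAG (purple) and WT H3K27ac (red) peaks, for WT-only peaks, edges lost, bases in both lists, edges gained and KO-only peaks. Gained edges and KO-only peaks have less H3K4me3 and FLAG than their lost counterparts.

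On all 22 autosomes WT had more peaks than KO, the share of unpaired peaks was higher in WT, and the median peak width was larger in KO. These counts use the complete lists, and over the genome the excess of unpaired WT peaks was nearly gone with lists of equal length (1492 and 1479). The median width change of one-to-one pairs was above 0 on 18 of them, and spread pairs outnumbered eroded pairs on 19. Chromosome 19 had the highest WT-only share, 199 of 642 peaks (31.0%, 27.5 to 34.7), and chromosome X the lowest, 43 of 266 (16.2%, 12.2 to 21.1). Chromosome 21 was the autosome with the closest shares, 31 of 129 WT peaks (24.03%) and 30 of 125 KO peaks (24%). On chromosome 11 spreading was most frequent, 25.8% of pairs against 15.0% eroded, and on chromosome 13 eroded pairs were in excess, 18.9% against 16.2%.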

How the data were processed

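ChIP-seq libraries were made from fixed, sonicated chromatin, per the labels' protocols, with 1 histone input library per genotype. Bowtie2, Picard and hg19 are named in the submitters' processing notes. The peaks carry names that start with MACS, per the files. The sources used here do not give the caller's version, the input used or any pooling. A position and a score per peak were deposited by the authors, and the scale of the score is not stated. Scores ranked peaks within a list, and equal limits (100, 500) applied to both lists assume a like scale. Groups came from sample titles. Coordinates are hg19, counted from 1.

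Peaks were paired at 1 bp. Width classes (2, 5 and 10 kb), the 500 bp limit, the alternatives and the named regions (5 per category by width, score, width change or number of pieces) were chosen with earlier results of these data known. No gene was assigned and no sequence is shown, since the reference tables belong to another build. Pairing matched bedtools 2.31.1 for all 11906 WT peaks. In 20 simulations, 200 losses, 200 splits, 200 erosions and 200 spreads were planted among 5226 WT peaks, with 0 wrong fates. Narrow peaks and peaks near a neighbour were left out, and no gains or joins were planted, so these were not checked. Tools were python 3.11.15, numpy 2.4.6, pandas 2.3.3, scipy 1.17.1 and matplotlib 3.10.9.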

Additional observations from a re-analysis of the deposited data

How the results depend on the processing

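Over 30 results and 163 alternatives, 105 values were alike (within the 95% interval, or within 1.5 times for counts, base shares and changes in number), 55 moved and 3 reversed. The alternatives for H3K4me3 strata, the changes in number and strong peaks against the complete other list were chosen after seeing the data. With lists of equal length by score, narrow peaks changed by 14.0% in all, 52.96% without H3K4me3 and 60.03% with neither H3K4me3 nor FLAG, all reversed, because the weakest WT peaks are removed by construction. Those with H3K4me3 changed by -13.7% and those with both by -26.9%. WT-only peaks then numbered 1492 and KO-only peaks 1479, counts that lists of equal length bring together by construction. The order of the unpaired narrow shares turned (43.3% in WT, 48.05% in KO), as did that of split peaks (391 in WT, 363 in KO). H3K4me3, H3K27ac and FLAG lay on 67.3%, 19.3% and 40.7% of WT-only peaks, and H3K4me3 and FLAG on 32.5% and 14.4% of KO-only peaks. With a score of at least 100, WT-only and KO-only peaks numbered 1397 and 451 (543 and 142 against the complete other list). Unpaired shares became 52.6% and 28.2% for narrow and 0.882% and 0.595% for wide peaks, and split peaks 192 in WT and 227 in KO. The median width change became 59 bp (45 bp with H3K4me3), the edge shift 21 bp from 15 bp, and the spread share 21.3%. Overlaps of WT-only peaks became 76.2%, 11.7% and 50.3%, and of KO-only peaks 39.9%, 3.55% and 22.4%, for H3K4me3, H3K27ac and FLAG. Narrow peaks without H3K4me3 changed by -11.3% and those with neither by -8.72%. With peaks up to 3 kb apart merged, split peaks numbered 39 and 66, since gaps are closed by construction. Unpaired shares became 62.7% and 42.5% for narrow and 1.13% for wide WT peaks, eroded and spread shares 18.6% and 21.7%, H3K4me3 overlaps 62.9% and 31.9%, the change in wide peaks 0.335%, and the median width change 206 bp without H3K4me3 and -36 bp for H3K4me3 pairs. With an overlap of 50%, 256 WT peaks were split and unpaired narrow shares were 57.7% and 41.8%. Limits of 1000 bp and of 10% of the width gave 5.27% and 19.5% eroded, 7.93% and 24.2% spread. Narrow as under 1.5 kb gave 64.6% and 54.2% unpaired, wide as 10 kb or more 0.134% in WT, and scores of 500 or more in both peaks a median change of 78 bp. Beyond the effects fixed by construction, the cause was not tested. Autosomes alone moved no result. No paired analysis was possible because each genotype has 1 library.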
